A study of Rattus norvegicus with 27 samples.

Results

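Heat shock proteins and their partner chaperones were examined in laser-dissected motor neurons of the rat tail after transection of the sacral spinal cord. The members are the genes whose symbol begins with Hspa, Hspb, Hspd, Hspe, Hsph, Hsp90 or Dnaj, or with Bag or Cct followed by a digit, in the annotation of the array. Only probe sets with 1 gene symbol were used, and each gene was read from its brightest probe set. This gave 61 genes of the 9769 single-symbol genes, on 78 of the 12913 probe sets tested. A further 5 probe sets that carry such a symbol together with another were not used, so Hspa8, Hspa1a, Hspa1b, Hsp90aa1 and Dnajb6 are not analysed here.

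The study compared transected with sham-operated adult male Wistar rats at 21 and at 60 days on 27 Affymetrix rat arrays. Spi-21 (8 arrays) and Spi-60 (8 arrays) are neurons taken 21 and 60 days after the cord was cut at sacral segment S2 with removal of 1 to 2 mm of tissue. ShamC-21 (6 arrays) and ShamC-60 (5 arrays) come from animals whose vertebrae were opened while the dura stayed intact. All 4 groups had buprenorphine for the first 48 hours and the retrograde tracer Fluorogold 5 to 7 days before the cords were frozen, and the sample labels give 100 to 200 dissected neurons per sample. RNA went through 2 rounds of amplification. The labels number the arrays as biological replicates without tying them to animals, litters or batches, so a p-value here speaks only to how much the samples of a group vary, which may be partly technical.

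Molecular chaperones bind unfolded protein and help it to fold, to be disassembled or to be degraded. HSP70 proteins work in cycles of ATP binding and hydrolysis: J-domain (DNAJ) proteins deliver clients and stimulate hydrolysis, while HSP110, BAG and HSPBP1 proteins release the nucleotide and thereby the client. HSP90 acts later on kinases and receptors, small heat shock proteins hold unfolded protein without ATP, and the ring-shaped CCT and HSPD1-HSPE1 chaperonins enclose their clients in the cytosol and in mitochondria. Motor neurons are known for a high constitutive level of HSPB1 and for a weak induction of the heat shock response under stress.

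Values are RMA log2 signals, and a difference is transected minus sham on that scale with its standard error from the limma fit. A gene rose or fell where the adjusted p was below 0.05, by Benjamini-Hochberg over all 12913 probe sets. At 21 days 10 of the 61 members (16.4%) rose and 10 (16.4%) fell, where 11.3% of all probe sets rose and 11.2% fell. At 60 days 7 members (11.5%) rose and 11 (18%) fell, against 10.2% and 8.92% of all probe sets. The median difference of the members was -0.05 at 21 days and -0.02 at 60 days, and that of all probe sets 0.01 and 0.02. A fit on the probe sets with a mean signal above the median kept 46 members. Of these 7 rose and 10 fell at 21 days, and 8 rose and 9 fell at 60 days. Of the 5404 single-symbol genes in that fit, 580 rose and 907 fell at 21 days, and 889 and 859 at 60 days. That fit adjusted over fewer probe sets, so its counts do not isolate signal level. In the fit on all probe sets the median signal at 21 days was 6.27 for rises, 7.26 for falls and 6.25 for the rest. At 60 days it was 7.11, 7.27 and 6.17. Most members are bright, and the part of signal level in their shares was not tested. The chaperones did not all move one way. Both a rise and a fall were found among the HSP70, J-domain B and small heat shock proteins. The calls of the HSP90 (1 gene of 2) and BAG families (1 of 4 at 21 days, 2 at 60 days) were rises. Falls made up the calls of the HSP110 family (1 of 3) and, at 21 days only, of the CCT (1 of 7) and J-domain A families (1 of 3). The J-domain C calls were falls too (3 of 18 at 21 days, 8 at 60 days). Several of these rest on 1 gene, so they give no direction for a family.

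Of the members, 11 changed the same way at both days (18% of the 61, against 10.2% of all probe sets). Those that rose at both days were Bag6, Hspa13, Hsp90ab1, Dnajb5, Hspbp1 and Hspb7, and those that fell were Hspa4, Hspa9, Dnajc21, Dnajc24 and Dnajc6. Leaving out 1 array moved the 60-day counts by over 1.5 times in some fits: 3 rose without ShamC-60 replicate 4, 4 rose without ShamC-60 replicate 3 or Spi-60 replicate 5, and 7 fell without ShamC-60 replicate 1 or 3. The count of shared changes was 6 without ShamC-60 replicate 3 and 7 without replicate 4. The shared changes made up 55% of the 21-day and 61.1% of the 60-day calls. Over all probe sets the same shares were 45.1% and 53.4%. In 48 of the 61 members the difference had the same sign at the 2 days. Signs were not counted over all probe sets, so this number does not set the members apart from other genes.

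**Figure D1:**
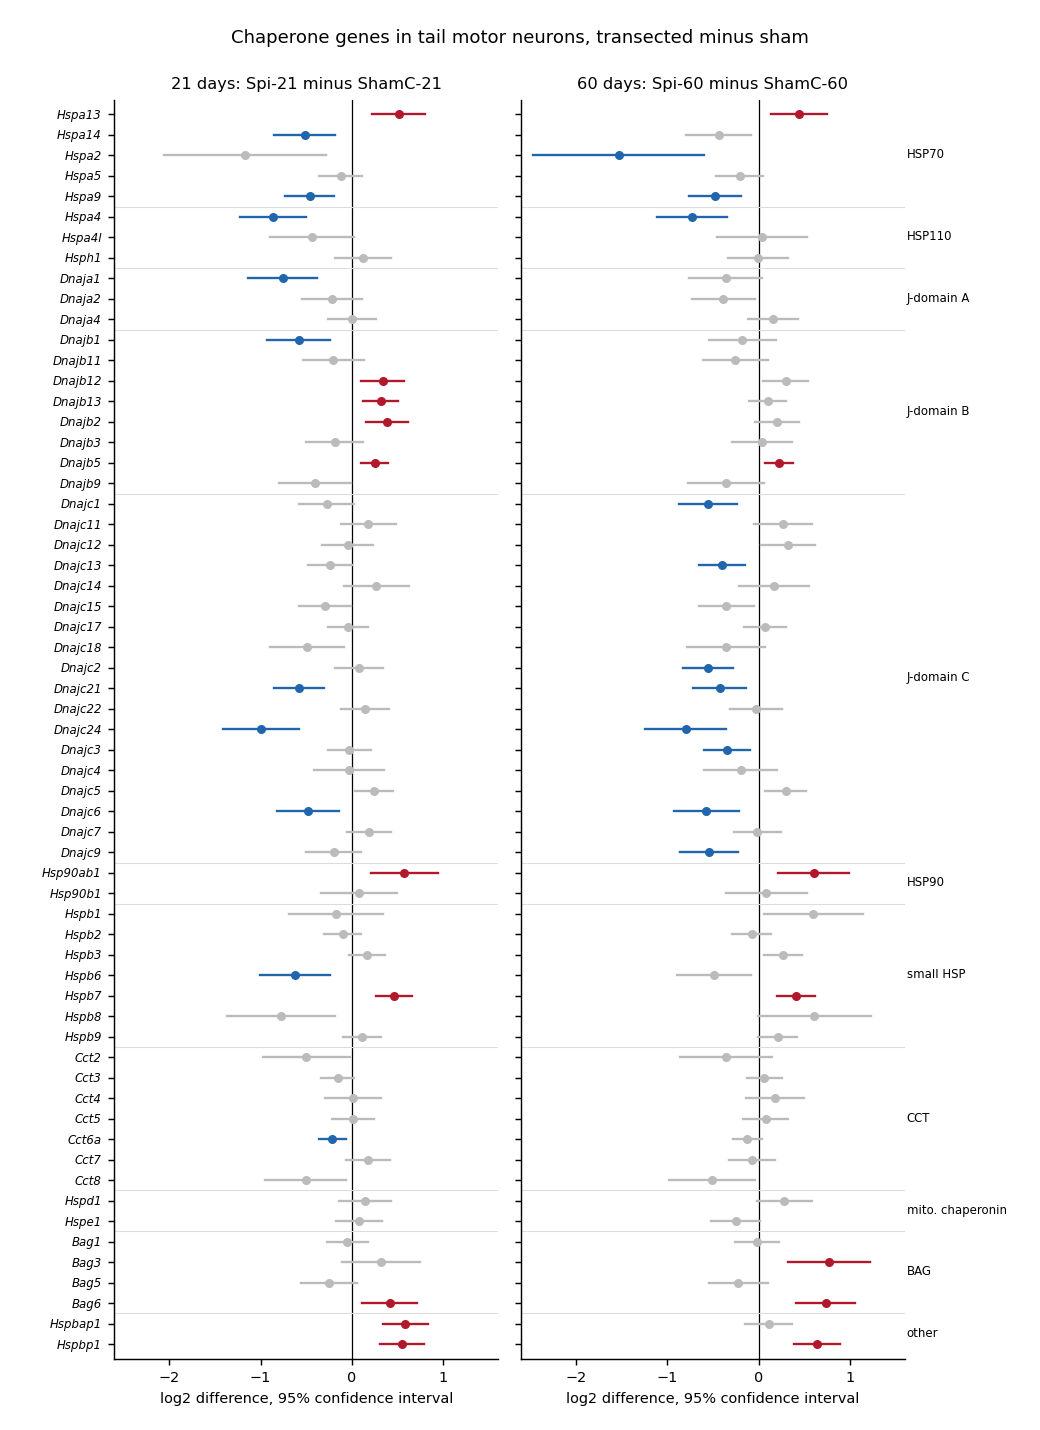
Log2 difference of each of the 61 members, transected minus sham, at 21 days (left) and 60 days (right), ordered by protein family. Points are fitted differences, bars are 95% confidence intervals, red and blue mark genes that rose or fell at adjusted p below 0.05, and grey marks the others. Rises and falls stand side by side in the HSP70, J-domain B and small heat shock protein families, and the J-domain C genes that passed at 60 days, 8 of 18, all lie below 0.

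Before the genes are taken in turn, the arrays differed in ways that touch them. The 3' minus 5' signal of the beta-actin controls was 3.21 ± 0.285 (SD, n = 8) in Spi-21 and 2.28 ± 0.229 (SD, n = 6) in ShamC-21, and 3.27 ± 0.303 (SD, n = 8) against 2.22 ± 0.182 (SD, n = 5) at 60 days (exact permutation tests, adjusted p = 0.0107 and 0.0124 in a family of 16). The GAPDH 3' minus 5' signal was 2.57 to 3.47 in Spi-21 replicates 1 to 4 and 0.98 to 1.46 in replicates 5 to 8. At 60 days it was 3.38 ± 0.365 (SD, n = 8) in Spi-60 and 2.57 ± 0.247 (SD, n = 5) in ShamC-60 (exact permutation test, adjusted p = 0.0166 in the same family). ShamC-60 replicate 4 had a mean of 8.996 over 11 motor neuron markers, against 10.40 to 10.57 in the other 4 arrays of its group, and ShamC-60 replicate 1 had the highest mean of its group over 10 oligodendrocyte markers (8.64, the others 7.20 to 7.66) and over 4 blood markers (7.59, the others 6.11 to 6.81). The group means over the 11 motor neuron markers were 10.538 in ShamC-21, 10.376 in Spi-21, 10.18 in ShamC-60 and 10.465 in Spi-60. Of these markers 1 rose at 21 days and 3 rose at 60 days, with 0 falling at either day. The marker means of astrocytes spanned 8.35 to 9.59 in ShamC-21, 8.86 to 9.61 in Spi-21, 8.97 to 10.12 in ShamC-60 and 9.20 to 10.00 in Spi-60, and 3 of 10 astrocyte, 2 of 10 oligodendrocyte and 3 of 11 microglia markers rose at 21 days (1, 1 and 1 at 60 days). No marker mean differed between operations after adjustment over the 16 tests. The part of these differences in the results was not tested beyond the fits named here. With the mean of the glial markers as a covariate, 10 members rose and 9 fell at 21 days, and 7 rose and 11 fell at 60 days. Without Spi-21 replicates 5 to 8 the 21-day counts were 11 rising and 21 falling, and 19 of the 20 calls remained. Without Spi-21 replicates 1 to 4 they were 3 and 3, and 5 of the 20 calls remained: Hspa4, Dnajc24, Dnaja1, Hspbap1 and Hspbp1. Without ShamC-60 replicates 1 and 4 the 60-day counts were 1 and 3: Hspbp1 rose, and Dnajc1, Dnajc2 and Hspa9 fell. The counts over all 9769 single-symbol genes moved as well. At 21 days 1085 of them rose and 1122 fell over all arrays. Without Spi-21 replicates 5 to 8 these counts were 1420 and 1579, and without replicates 1 to 4 they were 511 and 498. At 60 days 1042 rose and 922 fell over all arrays, and 388 and 272 without ShamC-60 replicates 1 and 4. In dissected tissue a lower signal from fewer cells of a type and from less RNA per cell cannot be told apart.

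Promoter sequences were at hand for 53 of the 61 members, from RefSeq in build GRCr8, and are shown for 5 members picked after their calls were seen, to show what the heat shock element looks like in genes that fell, rose or passed at neither day. Heat shock factors bind repeats of a unit of 5 bases with GAA or TTC at its core, in alternating orientation. A pair of units (GAANNTTC or TTCNNGAA, each the same on both strands, which overlap where 3 units follow each other) was found between 250 bases before and 50 bases after the annotated start in 16 of the 53 promoters (30.2%). The share was 11.9% in the promoters of 8051 genes of the array and 15.9% in all 33469 promoters of the table. Runs of 3 units were found in 5 of the 53 (9.43%), in Cct4, Dnaja1, Hspd1, Hspe1 and Hsph1, against 0.497% of the promoters of genes of the array. The windows of Hspd1 and Hspe1, neighbours read in opposite directions, overlap, so they are not independent of each other. Pairs were found in 1 of the 11 members that rose at either day, in 6 of the 14 that fell and in 9 of the 28 that did neither. The following lines give 280 bases of 5 promoters, from 250 bases before to 30 bases after the start, 5′ to 3′ on the strand of the gene and with the paired units in capitals. Dnaja1 (chr5:60638154-60638433, plus strand), Dnajb1 (chr19:41431112-41431391, minus strand) and Hspa9 (chr18:26828369-26828648, minus strand) fell at 21 days, Bag3 (chr1:192533210-192533489, plus strand) rose at 60 days, and Hsph1 (chr12:10427118-10427397, plus strand) carries a run of 3 units and passed at neither day.
Dnaja1: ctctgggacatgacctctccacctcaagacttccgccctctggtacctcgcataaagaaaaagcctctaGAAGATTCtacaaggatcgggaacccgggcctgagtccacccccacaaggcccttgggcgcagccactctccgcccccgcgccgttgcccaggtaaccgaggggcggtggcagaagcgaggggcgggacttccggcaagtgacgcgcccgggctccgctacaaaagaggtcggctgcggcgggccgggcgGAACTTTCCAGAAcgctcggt
Dnajb1: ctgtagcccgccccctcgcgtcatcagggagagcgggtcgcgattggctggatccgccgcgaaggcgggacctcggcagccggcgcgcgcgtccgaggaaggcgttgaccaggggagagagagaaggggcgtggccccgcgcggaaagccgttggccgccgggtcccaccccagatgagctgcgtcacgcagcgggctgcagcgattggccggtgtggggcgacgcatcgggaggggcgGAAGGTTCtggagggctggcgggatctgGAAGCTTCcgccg
Hspa9: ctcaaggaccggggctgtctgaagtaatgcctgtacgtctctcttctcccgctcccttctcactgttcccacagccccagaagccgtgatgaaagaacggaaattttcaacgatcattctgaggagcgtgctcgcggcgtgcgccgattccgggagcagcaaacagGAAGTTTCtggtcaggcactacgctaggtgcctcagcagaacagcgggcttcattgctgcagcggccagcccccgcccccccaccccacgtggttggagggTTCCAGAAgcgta
Bag3: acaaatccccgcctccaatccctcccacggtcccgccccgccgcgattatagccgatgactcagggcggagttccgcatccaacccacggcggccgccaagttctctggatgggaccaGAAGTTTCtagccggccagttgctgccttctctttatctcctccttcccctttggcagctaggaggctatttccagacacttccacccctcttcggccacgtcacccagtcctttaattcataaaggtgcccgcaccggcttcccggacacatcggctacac
Hsph1: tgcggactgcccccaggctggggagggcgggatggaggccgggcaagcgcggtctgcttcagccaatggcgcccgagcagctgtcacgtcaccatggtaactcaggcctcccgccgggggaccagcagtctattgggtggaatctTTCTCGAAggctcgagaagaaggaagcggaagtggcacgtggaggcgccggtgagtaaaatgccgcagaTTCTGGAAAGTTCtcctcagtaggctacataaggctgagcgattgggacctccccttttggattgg

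Among the 5 HSP70 genes 1 rose and 2 fell at each day. Those that fell were Hspa9 and Hspa14 at 21 days, and Hspa9 and Hspa2 at 60 days. Of their 3 HSP110 relatives 1 fell at each day. The shares over all probe sets were 11.3% rising and 11.2% falling at 21 days, and 10.2% and 8.92% at 60 days. Hspa4, an HSP110 protein that exchanges the nucleotide of HSP70, had the smallest p of all members at 21 days. Its signal was 8.21 to 8.60 (median 8.34) in ShamC-21 and 7.25 to 7.93 (median 7.39) in Spi-21. The 8 transected arrays all lay below the 6 sham arrays. The difference was -0.87 ± 0.18, or 1.82-fold lower (adjusted p = 0.00129). At 60 days the ShamC-60 arrays read 8.49, 7.89, 8.42, 8.46 and 7.86 and the Spi-60 arrays 6.71 to 8.02 (median 7.68), so the groups overlapped, and the difference was -0.73 ± 0.19 (1.65-fold lower, adjusted p = 0.00761). The other HSP110 members did not pass: Hspa4l differed by -0.44 ± 0.23 and 0.04 ± 0.24 at the 2 days, and Hsph1, the namesake of the family, by 0.12 ± 0.15 and -0.01 ± 0.16. The mean signal of Hsph1 was 5.25, under the median of all probe sets (6.35), a dim probe set.

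Hspa9, the HSP70 of the mitochondrial matrix (mortalin), fell at both days. Its signal was 8.42 to 8.91 in ShamC-21 and 7.93 to 8.53 in Spi-21, with overlap (-0.46 ± 0.13, 1.38-fold lower, adjusted p = 0.0139). The ShamC-60 arrays read 8.39, 8.46, 9.04, 7.97 and 8.64 and the Spi-60 arrays 7.66 to 8.29, a difference of -0.47 ± 0.14 (1.39-fold lower, adjusted p = 0.0182). Without ShamC-60 replicate 3 the 60-day adjusted p was 0.0809, and with quantile normalization both Hspa9 calls were lost (-0.36, adjusted p = 0.0587, and -0.37, adjusted p = 0.0685). A second, dimmer Hspa9 probe set differed by 0.14 at 21 days (adjusted p = 0.451). Hspa14, an HSP70 that binds ribosomes, fell at 21 days (-0.52 ± 0.17, adjusted p = 0.0244) and differed by -0.44 ± 0.17 at 60 days (adjusted p = 0.0754). Hspa13, a small HSP70-like ATPase of microsomes, rose instead. It read 6.38 to 6.94 in ShamC-21 and 6.71 to 7.52 in Spi-21 (0.51 ± 0.14, 1.43-fold higher, adjusted p = 0.0107), and it was 0.44 ± 0.15 higher at 60 days (adjusted p = 0.0356), a call that was lost in 8 of the 27 fits without 1 array and with the glial covariate (adjusted p = 0.0504). That of Hspa14 at 21 days was lost without Spi-21 replicate 1 or ShamC-21 replicate 4 or 5 and with the glial covariate (adjusted p = 0.0511).

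Hspa2, an HSP70 best known from testis and also made in neurons, had the largest difference and the largest spread of the members. Its within-group SD was 0.87, where the median over members was 0.27. ShamC-21 arrays lay between 6.45 and 7.44 and Spi-21 arrays between 4.24 and 7.76, and replicates 1 to 4 (4.24 to 5.74) lay lower than replicates 5 to 8 (5.67 to 7.76) with little overlap. The 21-day difference of -1.17 ± 0.43 had an adjusted p of 0.0505. The ShamC-60 arrays read 8.54, 6.91, 7.03, 7.71 and 6.58 and the Spi-60 arrays 4.55 to 7.00, and Hspa2 fell by 1.53 ± 0.46 on the log2 scale (2.89-fold lower, adjusted p = 0.02). The 60-day call was lost without ShamC-60 replicate 1 or replicate 4 (adjusted p up to 0.0844), and the second, dimmer probe set of the gene differed by 0.13 and -0.19 at the 2 days (adjusted p = 0.603 and 0.456). Hspa5 (BiP), the HSP70 of the endoplasmic reticulum and a standard readout of the unfolded protein response, passed at neither day. Its signal was 10.38 to 10.78 in ShamC-21 and 10.16 to 10.89 in Spi-21, and the 95% confidence interval of its difference ran from -0.36 to 0.11 at 21 days and from -0.46 to 0.04 at 60 days.

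**Figure D2:**
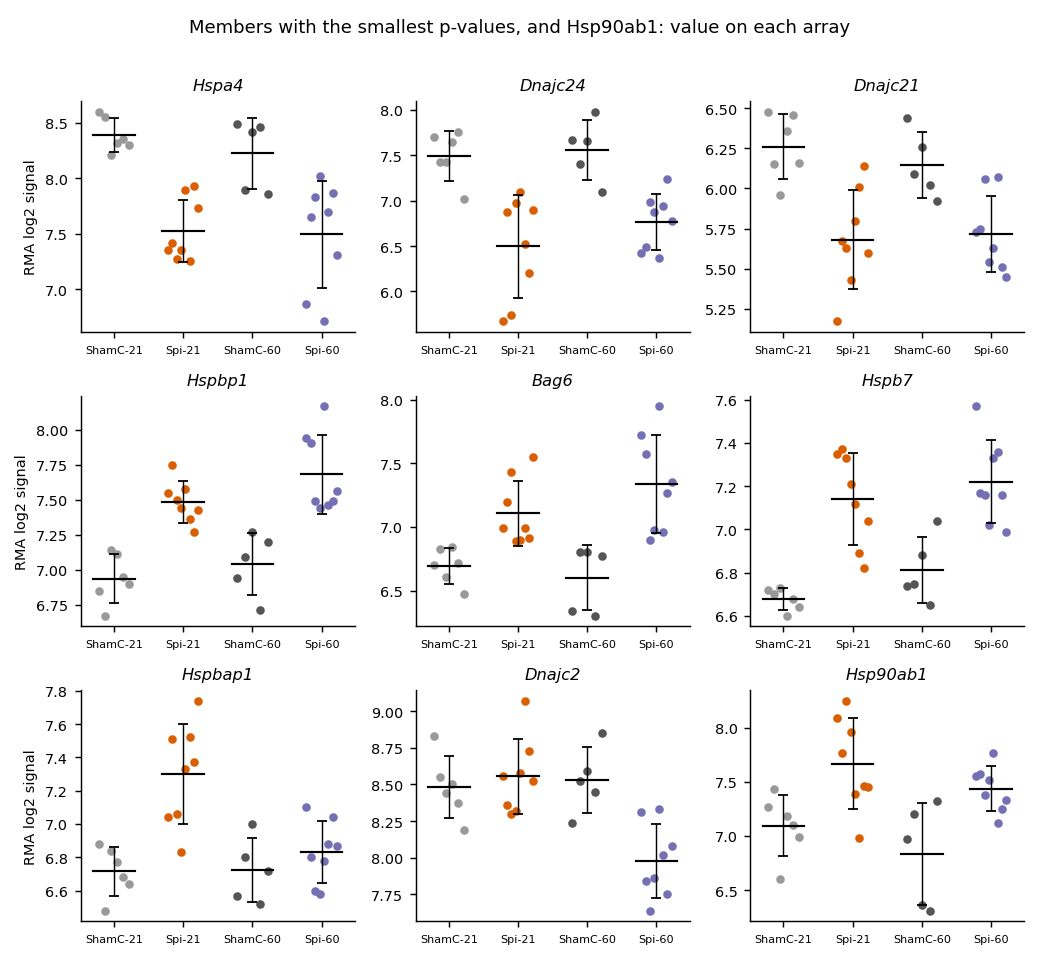
RMA log2 signal on each array for 8 members with the smallest p-values and for Hsp90ab1, by group. Each point is 1 array, the horizontal line is the group mean and the bar is 1 SD. The Spi-21 arrays of Hspa4 lie between 7.25 and 7.93, below all ShamC-21 arrays, those of Hspbp1 lie above theirs at both days, and Dnajc2 is lowest in Spi-60 (7.64 to 8.33).

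Of the 3 J-domain A genes 1 fell at 21 days and none changed at 60 days, 4 of 8 J-domain B genes rose and 1 fell at 21 days and 1 rose at 60 days, and of the 18 J-domain C genes 3 fell at 21 days and 8 at 60 days with none rising. Over all probe sets 11.3% rose and 11.2% fell at 21 days, and 10.2% and 8.92% at 60 days. Whether the subfamilies differ was not tested. The median difference of the J-domain C genes was -0.04 at 21 days and -0.35 at 60 days, beside 0.01 and 0.02 over all probe sets. The J-domain C count at 60 days was 5 to 8 when single arrays were left out and 2 without ShamC-60 replicates 1 and 4 (median -0.31). The difference between the days was passed by 0 of these genes.

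Dnaja1, a general partner of cytosolic HSP70 and a heat shock factor target, carries the run of 3 units printed above and fell at 21 days. Its ShamC-21 arrays spanned 10.22 to 11.02 (median 10.70) and its Spi-21 arrays 9.21 to 10.63 (median 9.85). Most transected arrays lay below the sham arrays, and the difference was -0.76 ± 0.19 (1.69-fold lower, adjusted p = 0.00506). The dimmer Dnaja1 probe set differed by -0.41 without passing (adjusted p = 0.0785). At 60 days the brighter one differed by -0.36 ± 0.20 (adjusted p = 0.196). Dnajb1 (HSP40), the main heat-inducible J protein, behaved likewise in its brighter probe set: 9.59 to 10.18 in ShamC-21 and 8.49 to 9.59 in Spi-21, a difference of -0.58 ± 0.17 (1.5-fold lower, adjusted p = 0.0152), and -0.18 ± 0.18 at 60 days (adjusted p = 0.507). The second Dnajb1 probe set differed by 0.16 at 21 days (adjusted p = 0.39). The J-domain B genes that rose at 21 days were Dnajb2 (0.38 ± 0.11), a neuronal J protein that sorts clients to the proteasome, Dnajb12 (0.34 ± 0.11), of the endoplasmic reticulum membrane, Dnajb13 (0.31 ± 0.09), known from sperm and cilia, and Dnajb5 (0.25 ± 0.07). Their adjusted p lay between 0.0158 and 0.0348, and a second Dnajb12 probe set differed by -0.05. The mean signals of Dnajb2 (5.63), Dnajb13 (5.90) and Dnajb12 (6.25) lay under the median of all probe sets (6.35). Without Spi-21 replicates 1 to 4, 0 J-domain B genes rose at 21 days. The Dnajb12 call was lost in 6 of the 27 fits without 1 array, that of Dnajb2 without ShamC-21 replicate 2 and that of Dnajb13 without ShamC-21 replicate 6. Dnajb5 also rose at 60 days by a small step (0.22 ± 0.08, 1.17-fold, adjusted p = 0.0401), which was lost in 9 of those fits, with quantile normalization and in the fit on 2 groups (adjusted p = 0.0536 and 0.0602), and its 2 dimmer probe sets differed by -0.13 and 0.14 there without passing.

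The J-domain C genes carry the J domain on otherwise unrelated proteins with special tasks. Dnajc24, which is needed to make the diphthamide residue of elongation factor 2, fell most among them. Its signal was 7.02 to 7.76 (median 7.53) in ShamC-21 and 5.67 to 7.08 (median 6.70) in Spi-21, with 1 sham array inside the transected range. The difference was -0.996 ± 0.20 (1.99-fold lower, adjusted p = 0.0013). In ShamC-60 the arrays read 7.67, 7.40, 7.66, 7.98 and 7.10 and in Spi-60 6.37 to 7.24 (-0.80 ± 0.22, 1.74-fold lower, adjusted p = 0.0104). Both calls of Dnajc24 held when any single array was left out. Dnajc21, a cofactor of ribosome assembly, read 5.96 to 6.48 in ShamC-21 and 5.17 to 6.14 in Spi-21 and fell by 0.58 ± 0.13 (adjusted p = 0.00331), and at 60 days by 0.43 ± 0.14 (adjusted p = 0.0325, lost in 6 of the 27 fits without 1 array). Dnajc6 (auxilin), the neuronal J protein that uncoats clathrin vesicles with HSP70, fell at both days as well. Its signal was 11.10 to 11.62 in ShamC-21 against 10.41 to 11.27 in Spi-21 (-0.48 ± 0.17, adjusted p = 0.0358), and its 60-day difference was -0.57 ± 0.17 (adjusted p = 0.0219). The 21-day call of Dnajc6 was lost in 7 fits without 1 array, and with quantile normalization (adjusted p = 0.0539). Its 60-day call was lost without ShamC-60 replicate 1 or 4, when its 2 groups were fitted alone (adjusted p = 0.0566) and when arrays were weighted (-0.33, adjusted p = 0.0914). The dimmer Dnajc6 probe set passed at neither day (-0.44 and -0.40, adjusted p = 0.076 and 0.143). Dnajc5, the cysteine string protein of synaptic vesicles, differed upward by 0.24 ± 0.10 and 0.30 ± 0.11 without passing (adjusted p = 0.0909 and 0.0542).

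At 60 days 5 further J-domain C genes fell. Dnajc2, a J protein of the ribosome, had the smallest p of them. Its signal was 8.20 to 8.84 in ShamC-21 and 8.30 to 9.07 in Spi-21, where the difference was 0.07 ± 0.13 (adjusted p = 0.714). At 60 days the sham arrays read 8.24, 8.52, 8.59, 8.45 and 8.85 and the transected arrays 7.64 to 8.33 (median 7.94), so 2 Spi-60 arrays reached above the lowest sham array. The difference was -0.56 ± 0.14 (1.47-fold lower, adjusted p = 0.00536). Dnajc1, a membrane J protein of the endoplasmic reticulum, read 6.89, 7.20, 7.21, 6.97 and 7.11 in ShamC-60 and 6.15 to 6.87 in Spi-60, with all transected arrays below the sham arrays (-0.55 ± 0.15, adjusted p = 0.0132), while its second probe set differed by 0.12. Dnajc9, a J protein that chaperones histones (-0.55 ± 0.15), Dnajc13, which acts on endosomes (-0.40 ± 0.12), and Dnajc3, an inhibitor of the kinase PERK (-0.34 ± 0.12), fell with adjusted p between 0.0144 and 0.0496. The Dnajc3 call was lost in 19 of the 27 fits that left out 1 array, and with quantile normalization, the fit on 2 groups, the trended and robust prior and the glial covariate (adjusted p 0.0579 to 0.142). That of Dnajc13 was lost without Spi-60 replicate 5 or ShamC-60 replicate 3 or 4.

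Hspbp1, a nucleotide exchange factor of HSP70, stood apart completely at both days. Its signal was 6.67 to 7.14 (median 6.92) in ShamC-21 and 7.28 to 7.75 (median 7.47) in Spi-21. In ShamC-60 the arrays read 6.94, 7.09, 7.27, 6.71 and 7.20 and in Spi-60 7.44 to 8.17 (median 7.52). The differences were 0.55 ± 0.12 (1.46-fold higher, adjusted p = 0.0018) and 0.64 ± 0.12 (1.56-fold higher, adjusted p = 0.000741), and both held in each fit named above that left arrays out. Hspbap1, named for its binding to HSPB1, rose at 21 days: 6.48 to 6.88 in ShamC-21 against 6.83 to 7.74 in Spi-21 (0.58 ± 0.12, 1.5-fold higher, adjusted p = 0.00141), and 0.11 ± 0.13 at 60 days (adjusted p = 0.576). The difference between the days was -0.47 ± 0.18 and did not pass (adjusted p = 0.647).

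Bag6, a chaperone of tail-anchored and mislocalised membrane proteins, rose at both days without overlap. It read 6.47 to 6.84 in ShamC-21 and 6.89 to 7.55 in Spi-21 (0.41 ± 0.15, 1.33-fold higher, adjusted p = 0.0463), a call that was lost in 12 of the 27 fits without 1 array. At 60 days it read 6.34, 6.80, 6.80, 6.30 and 6.77 in ShamC-60 and 6.90 to 7.95 in Spi-60 (0.73 ± 0.16, 1.66-fold higher, adjusted p = 0.00197). The dimmer Bag6 probe set rose at 21 days (0.36, adjusted p = 0.0367) and differed by 0.33 at 60 days (adjusted p = 0.074). Bag3, which with HSPB8 routes aggregated protein to autophagy, differed by 0.32 ± 0.21 at 21 days (adjusted p = 0.277). At 60 days the sham arrays read 9.14, 9.27, 9.15, 7.48 and 9.21 and the transected arrays 9.30 to 10.03, all higher, and Bag3 rose by 0.77 ± 0.22 (1.70-fold, adjusted p = 0.016). Replicate 4 set much of that size: without it the difference was 0.43 and the adjusted p 0.0778. Bag1, a nucleotide exchange factor, differed by -0.05 and -0.02 at the 2 days and Bag5 by -0.25 and -0.22, and neither passed.

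Complete separation of the groups was found in 4 members at each day. At 21 days Bag6, Hspbp1 and Hspb7 lay above and Hspa4 below (4.92% and 1.64% of members), where 3.17% and 2.3% of all single-symbol genes lay apart in these directions and 11.3% and 11.2% of probe sets passed the test. At 60 days Bag3, Bag6 and Hspbp1 lay above and Dnajc1 below, and the shares over all genes were 5.11% and 3.6%, beside 10.2% and 8.92% of probe sets that passed. At 60 days separation was thus no more frequent among the members than among all genes.

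Of the HSP90 proteins, Hsp90ab1, the constitutive cytosolic form, rose at both days. It read 6.60 to 7.43 (median 7.14) in ShamC-21 and 6.98 to 8.25 (median 7.62) in Spi-21, a difference of 0.58 ± 0.18 (1.49-fold higher, adjusted p = 0.0234). Within Spi-21 replicates 1 to 4 lay between 7.77 and 8.25 and replicates 5 to 8 between 6.98 and 7.46, the latter largely within the sham range. Its ShamC-60 arrays read 6.97, 7.20, 6.36, 6.31 and 7.32 and its Spi-60 arrays 7.12 to 7.77 (0.60 ± 0.19, 1.52-fold higher, adjusted p = 0.0265). The second probe set differed by -0.14 at 21 days (adjusted p = 0.516) and rose by 0.49 at 60 days (adjusted p = 0.026). In the brighter probe set the 21-day call was lost without Spi-21 replicate 3 or ShamC-21 replicate 3, and the 60-day call without Spi-60 replicate 5 or ShamC-60 replicate 3 or 4. Hsp90b1 (GRP94), the form of the endoplasmic reticulum, differed by 0.08 ± 0.20 and 0.08 ± 0.22 and passed at neither day.

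Small heat shock proteins moved singly. Hspb7, best known from heart and muscle, rose at both days. Its signal was 6.60 to 6.73 in ShamC-21 and 6.82 to 7.37 in Spi-21, all higher (0.46 ± 0.10, 1.38-fold, adjusted p = 0.00176), and 6.65 to 7.04 in ShamC-60 against 6.99 to 7.57 in Spi-60 (0.41 ± 0.10, adjusted p = 0.00685). Its dimmer probe set differed by -0.14 and 0.08 at the 2 days and passed at neither. Hspb6 (HSP20) fell at 21 days, from 7.67 to 8.38 in ShamC-21 to 6.84 to 7.87 in Spi-21 (-0.63 ± 0.19, 1.54-fold lower, adjusted p = 0.0181), and differed by -0.49 ± 0.20 at 60 days (adjusted p = 0.0819).

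Hspb1 (HSP27), known for its part in motor neuron survival and in inherited motor neuropathy, passed at neither day. It read 12.69 to 13.38 in ShamC-21 and 12.61 to 13.24 in Spi-21 (-0.17 ± 0.25, adjusted p = 0.65). At 60 days 4 sham arrays read 12.71, 13.16, 13.14 and 13.37 and replicate 4 read 10.74, while the transected arrays read 12.92 to 13.47 (0.60 ± 0.26, adjusted p = 0.112). Without that replicate the 60-day difference was 0.13, and without ShamC-60 replicate 5 it was 0.78 and passed (adjusted p = 0.0403). Hspb8 (HSP22), the partner of BAG3 and also linked to motor neuropathy, read 10.06 to 10.97 (median 10.56) in ShamC-21 and 9.25 to 10.23 (median 9.78) in Spi-21. Its difference of -0.78 ± 0.29 was just short of the threshold (adjusted p = 0.0509). Its ShamC-60 arrays read 9.83, 10.10, 10.44, 7.43 and 9.88 and its Spi-60 arrays 9.84 to 10.46 (0.61 ± 0.30, adjusted p = 0.156). Without ShamC-60 replicate 4 the 21-day adjusted p was 0.00102 and the 60-day difference 0.08, and the dimmer Hspb8 probe set differed by 0.17 and 0.28 without passing. Cryab, a small heat shock protein outside the naming rule, differed by -0.18 ± 0.22 and 0.12 ± 0.23 and passed at neither day.

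**Figure D3:**
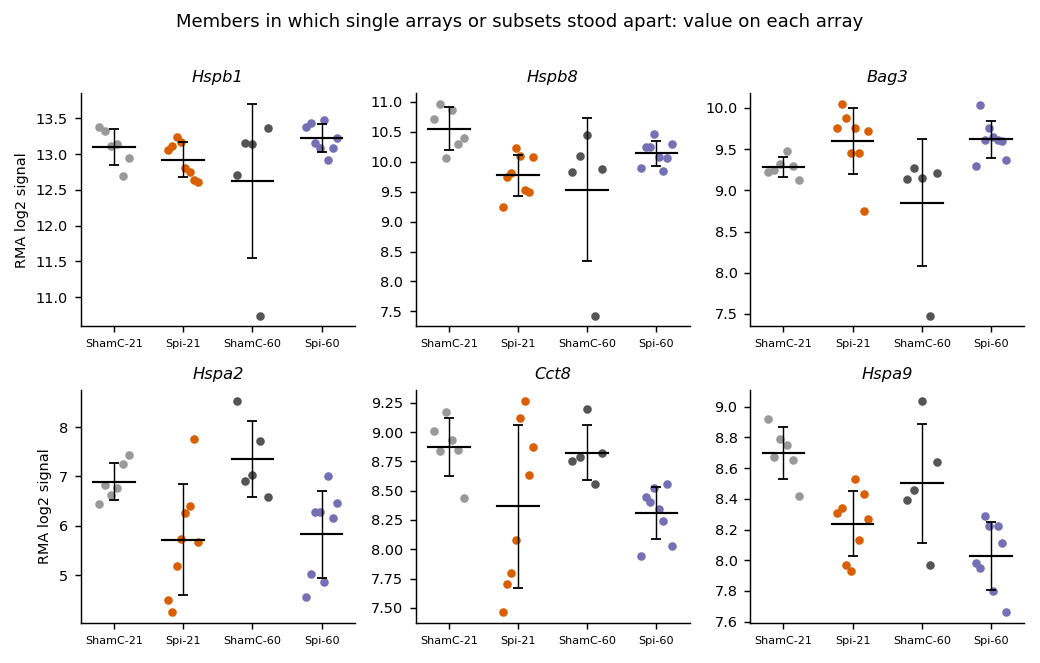
RMA log2 signal on each array for 6 members in which single arrays or subsets stood apart, by group. Each point is 1 array in replicate order from left to right, the horizontal line is the group mean and the bar is 1 SD. Each gene is shown by its brightest probe set. ShamC-60 replicate 4 lies far below its group for Hspb1 (10.74), Hspb8 (7.43) and Bag3 (7.48). The Spi-21 arrays of Cct8 form 2 sets, 7.46 to 8.08 and 8.63 to 9.27, which overlap in the dimmer Cct8 probe set (not shown).

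The CCT genes and the mitochondrial chaperonin pair gave 1 call, at 21 days. By comparison, 11.3% of all probe sets rose and 11.2% fell at 21 days, and 10.2% and 8.92% at 60 days. Whether the chaperonins changed less than other families was not tested. Of the 7 CCT subunits, which together fold actin and tubulin, only Cct6a fell at 21 days (-0.21 ± 0.07, 1.16-fold lower, adjusted p = 0.0339), and its dimmer probe set differed by 0.08. That call was lost in 8 of 27 fits without 1 array, and with quantile normalization, the fit on 2 groups, array weights, the trended and robust prior and the glial covariate (adjusted p 0.0557 to 0.145). None passed at 60 days, where the largest difference was that of Cct8 (-0.51 ± 0.23, adjusted p = 0.115). Cct8 read 8.44 to 9.17 in ShamC-21, while Spi-21 replicates 1 to 4 read 7.46 to 8.08, all lower, and replicates 5 to 8 read 8.63 to 9.27, within or above the sham range. The 21-day difference was -0.51 ± 0.22 over all arrays (adjusted p = 0.0916) and -1.11 without replicates 5 to 8. Those replicates averaged 8.974, where the ShamC-21 mean was 8.873. The second, dimmer Cct8 probe set did not split this way. There replicates 1 to 4 read 7.36 to 8.34 and replicates 5 to 8 read 8.19 to 8.79, with ShamC-21 at 8.13 to 8.57. Its differences were -0.11 and -0.22 at the 2 days (adjusted p = 0.671 and 0.395). Cct2 differed by -0.50 ± 0.23 and -0.36 ± 0.25 without passing, and by -0.87 at 21 days without Spi-21 replicates 5 to 8. Those replicates averaged 9.345 for Cct2, where the ShamC-21 mean was 9.473. Cct3, Cct4, Cct5 and Cct7 differed by -0.16 to 0.18 at the 2 days without passing. Without Spi-21 replicates 1 to 4, however, Cct7 differed by 0.45 at 21 days. The sets of arrays left out were chosen with earlier results known, so no p-value is given here for these parts of Spi-21. The mitochondrial chaperonin pair passed at neither day: Hspd1 (HSP60) differed by 0.14 ± 0.14 and 0.28 ± 0.15, and its cap Hspe1 (HSP10) by 0.08 ± 0.12 and -0.25 ± 0.13. At 60 days the 95% confidence intervals were -0.02 to 0.58 for Hspd1 and -0.52 to 0.02 for Hspe1.

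**Figure D4:**
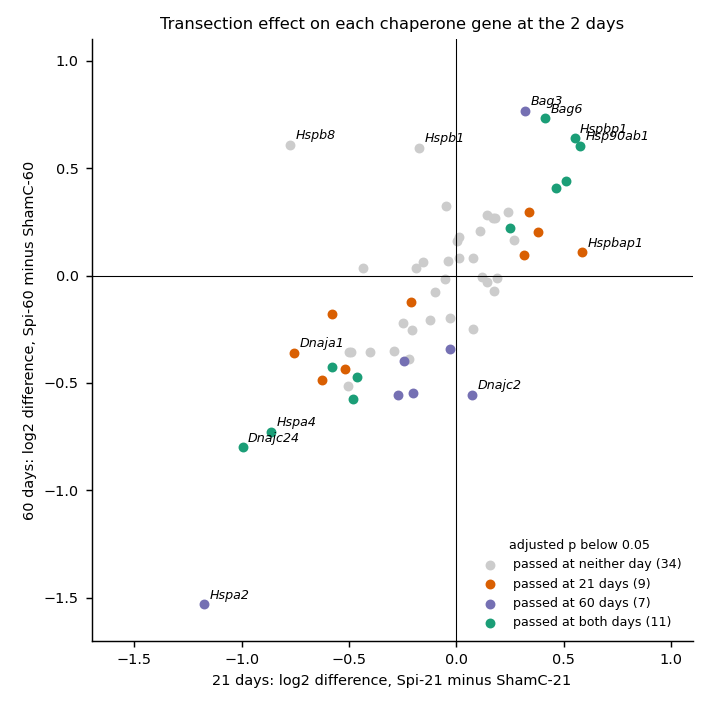
Log2 difference at 21 days (horizontal axis) against 60 days (vertical axis) for the 61 members, with colours for the days at which a gene passed adjusted p below 0.05. Points in the lower left and upper right have the same sign at both days, as 48 members do (not counted over all probe sets). Hspb8 and Hspb1 stand in the upper left.

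The time after the operation was compared in 3 ways that share arrays with each other and with the comparisons above. A transection effect that differs between the days was passed by 0 members and 0% of all probe sets in limma, with 4 members and 905 of the 12913 probe sets at an unadjusted p below 0.05. The 3 members with the smallest p were Dnajc2 (-0.63 ± 0.19), Hspb8 (1.38 ± 0.42) and Hspbap1 (-0.47 ± 0.18), with adjusted p of 0.627, 0.627 and 0.647. Without Spi-21 replicates 1 to 4, a set chosen with earlier results known, Dnajc2 and Hspbap1 passed (adjusted p = 0.044 and 0.0378). Between the transected groups Dnajc2 was the one member that changed, against 0.0852% of all probe sets. It was 0.58 ± 0.12 lower in Spi-60 than in Spi-21 (adjusted p = 0.0458), and 22 of the 27 fits that left out 1 array called no member. Between the sham groups 0 members and 0% of all probe sets passed, with 2 members and 513 probe sets at an unadjusted p below 0.05.

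The partner genes that work on the same chaperones were counted in 4 lists. Of 24 heat shock factors and cytosolic co-chaperones, 5 rose and 4 fell at 21 days and 9 rose and 3 fell at 60 days, with list medians of -0.03 and 0.14. Over all probe sets 11.3% rose and 11.2% fell at 21 days, and 10.2% rose and 8.92% fell at 60 days. Among them Ppp5c, a phosphatase that docks on HSP90, rose by 1.00 ± 0.12 and 0.62 ± 0.13 (adjusted p = 5.68e-06 and 0.0015). Fkbp8, a mitochondrial HSP90 co-chaperone, rose by 0.58 ± 0.11 and 0.82 ± 0.12, and Cdc37, which brings kinases to HSP90, by 0.47 ± 0.16 and 0.89 ± 0.17. Hsf4, a heat shock factor, rose by 0.58 ± 0.17 and 0.86 ± 0.17. Chordc1, an HSP90 co-chaperone, fell by 1.09 ± 0.16 and 0.69 ± 0.17, and St13, which stabilises the ADP state of HSP70, by 0.77 ± 0.19 and 0.69 ± 0.20. Co-chaperones of HSP90 thus moved both ways while Hsp90ab1 rose. Hsf1, the main heat shock factor, was looked up after its values were seen: it differed by 0.07 ± 0.11 at 21 days (adjusted p = 0.665) and rose by 0.36 ± 0.12 at 60 days (adjusted p = 0.0284). Without ShamC-60 replicates 1 and 4, the 60-day count of this list was 4 rising and 1 falling, and without Spi-21 replicates 1 to 4 the 21-day count was 2 and 1.

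Of 12 prefoldin and chaperonin partners, 3 rose and 1 fell at 21 days, and 1 rose and 3 fell at 60 days (medians -0.07 and -0.13), where over all probe sets 11.3% rose and 11.2% fell at 21 days and 10.2% and 8.92% at 60 days. The prefoldin subunits, which hand actin and tubulin to CCT, were split: Pfdn2 (0.46 ± 0.10) and Pfdn6 (0.89 ± 0.21) rose at 21 days and Pfdn5 fell at 60 days (-0.44 ± 0.12). The tubulin cofactor Tbcb rose at both days (0.45 ± 0.15 and 0.47 ± 0.15), and Pdrg1 fell at both (-0.40 ± 0.14 and -0.59 ± 0.15). Without ShamC-60 replicates 1 and 4 the 60-day count was 0 rising and 1 falling.

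Of 29 genes of folding in the endoplasmic reticulum and of the unfolded protein response, 4 rose and 3 fell at 21 days and 2 rose and 1 fell at 60 days (medians 0.02 and 0.05). The 21-day counts lie near the 11.3% and 11.2% over all probe sets, and the 60-day counts below the 10.2% and 8.92%. Without ShamC-60 replicates 1 and 4 none of them passed at 60 days. Sil1, the nucleotide exchange factor of Hspa5, rose by 0.73 ± 0.12 and 0.55 ± 0.13 (adjusted p = 0.000195 and 0.0043), and Edem2, which trims glycans of misfolded protein, by 0.51 ± 0.12 and 0.40 ± 0.12. Canx, the membrane lectin calnexin, rose at 21 days by 0.48 ± 0.10 and differed by 0.29 ± 0.11 at 60 days. Sdf2 fell at 21 days (-0.56 ± 0.12), and Ddit3 (CHOP), the stress-induced transcription factor, fell at 60 days (-0.52 ± 0.16, adjusted p = 0.0235). Of 13 genes of mitochondrial folding and proteolysis, 2 fell at 21 days, and 2 rose and 2 fell at 60 days (medians -0.06 and 0.02). Those counts too stand beside 11.3% and 11.2% of all probe sets at 21 days and 10.2% and 8.92% at 60 days. Grpel1, the exchange factor of Hspa9, fell with it at both days (-0.35 ± 0.10 and -0.33 ± 0.10, adjusted p = 0.0113 and 0.0247). The protease subunit Clpx fell at 60 days (-0.79 ± 0.19) and the protease Lonp1 rose (0.46 ± 0.15). Without ShamC-60 replicates 1 and 4 none of this list passed at 60 days, and without Spi-21 replicates 1 to 4 none passed at 21 days.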

How the data were processed

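Gene expression was measured in 27 samples of dissected motor neurons. The values are log2 probe set signals deposited by the authors, made by RMA per the submitters' processing notes, whose version was not given in the sources used here. Differences were fitted with limma 3.58.1 in R 4.3.3 (linear models with empirical Bayes) over all 27 arrays in 4 groups without covariates, and Benjamini-Hochberg adjustment ran over 12913 probe sets, with 6 control probe sets left out and no filter on signal. Array checks used two-sided exact permutation tests (scipy 1.17.1). The number of arrays limits the precision. The fit was also run on simulated data with independent noise of the same spread in every array. Such data cannot speak to arrays that stand apart, as some did here. The members, lists, sets of arrays left out and tests were chosen with earlier results of these data known. The text names every member that passed at either day, a fixed set of well-known chaperones and, per partner list and day, up to 4 genes with the smallest p. All 61 gene identifiers were found in RefSeq. Alternatives were quantile normalization, a filter on signal, the dimmest probe set of each gene, fits on 2 groups, array weights, a trended and robust prior, the replicate block, a glial covariate and arrays left out.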

Additional observations from a re-analysis of the deposited data

Results flagged for a closer look

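Single arrays stood apart by Dixon's test in 9 of 176 member-by-group sets examined for the named members. In independent sets the test flags about 1 in 20 by chance. These sets share the same arrays, so the rate does not tell whether these flags arose by chance. In ShamC-60 replicate 4, Bag3 (7.48, nearest 9.14), Hspb1 (10.74, nearest 12.71) and Hspb8 (7.43, nearest 9.83) were each the lowest of their group, in the array with the lowest motor neuron marker mean of its group (8.996). The causes of these values were not tested. In ShamC-60 replicate 1, Cct2 (9.88, nearest 9.39) and Hspa13 (6.96, nearest 6.61) were the highest. In ShamC-21 replicate 6, Cct6a (10.68, nearest 10.96) and Hspa5 (10.38, nearest 10.65) were the lowest. The remaining low arrays were Spi-21 replicate 7 for Bag3 (8.75, nearest 9.45) and Spi-60 replicate 8 for Cct6a (10.51, nearest 10.68).

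The Hspb8 differences had opposite signs at the 2 days and passed at neither (limma, adjusted p = 0.0509 and 0.156): all 8 Spi-21 arrays lay below the mean of ShamC-21 and all 8 Spi-60 arrays above the mean of ShamC-60. The test of the difference between the days gave 1.38 ± 0.42 and did not pass (limma, adjusted p = 0.627). The ShamC-60 mean includes replicate 4, and without it the 60-day difference was 0.08.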

How the results depend on the processing

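With 1 array left out at a time, the members that rose at 21 days numbered 7 to 11 and those that fell 7 to 14. At 60 days 3 to 9 rose and 7 to 11 fell, 6 to 13 changed the same way at both days, 0 to 2 changed between Spi-21 and Spi-60, and 0 differed between the days or between the sham groups. Of 38 named calls, 20 held in each of these fits. With the dimmest probe set of each gene, 5 fell at 21 days, 4 rose and 7 fell at 60 days, and 5 changed the same way at both days. Only 16 of the 61 members have several probe sets, so only those could move. Of the called ones, Bag6, Dnaja1, Dnajb5 and Dnajc6 kept their sign at 21 days. At 60 days Bag6, Dnajb5, Dnajc6, Hsp90ab1, Hspa2, Hspa9 and Hspb7 kept theirs. The sign turned in 7 calls: at 21 days Cct6a (0.081), Dnajb1 (0.16), Dnajb12 (-0.049), Hsp90ab1 (-0.14), Hspa9 (0.14) and Hspb7 (-0.14), and at 60 days Dnajc1 (0.12). The cause was not tested. Without Spi-21 replicates 5 to 8, 21 fell at 21 days, 17 changed the same way at both days and 0 between Spi-21 and Spi-60. Without Spi-21 replicates 1 to 4, 3 rose and 3 fell at 21 days, 3 changed the same way at both days, 2 differed between the days and 5 changed between Spi-21 and Spi-60 (Cct7, Cct8, Dnajc12, Dnajc2 and Hspbap1). Without ShamC-60 replicates 1 and 4, 1 rose and 3 fell at 60 days and 2 changed the same way at both days. The counts of rises and falls over all genes without these sets of arrays stand beside the array checks above. The Dnajc2 change between Spi-21 and Spi-60 fell to a count of 0 in the fit on 2 groups, with array weights, with a trended and robust prior, with the glial covariate and with the replicate block. The labels do not say whether the replicate numbers pair the arrays. Over 35 same-numbered pairs the correlations of deviations from the group means ran from -0.31 to 0.33, and 9 were over 0.1. Differently numbered pairs were not computed, so these values cannot decide whether the arrays are paired. With the replicate block 10 rose and 11 fell at 21 days, 9 rose and 11 fell at 60 days and 15 changed the same way at both days. Over all 9769 single-symbol genes 1215 rose and 1219 fell at 21 days with the block, and 1263 and 1164 at 60 days. Arrays give no detection calls here: 46 of the 61 members had a mean signal above the median of all probe sets, and changes of the dimmer ones are the least certain.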
